A study of Mus musculus with 12 samples.

Results

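The cytosolic ribosome is built from ribosomal RNA and a fixed set of ribosomal proteins, whose messages are among the most abundant in a cell. The genes described here were chosen by symbol, as Rpl or Rps followed by a digit together with Rplp0, Rplp1, Rplp2 and Rpsa, without pseudogene symbols and without the S6 kinases (Rps6k). A gene also had to reach 10 TPM in all 12 libraries, TPM being transcript abundance scaled to gene length and to a library sum of 1000000. These rules kept 79 of 90 matching symbols, out of 25230 genes in the table, with 47 genes of the large subunit and 32 of the small subunit. The symbol rule also took in Rps19bp1, whose product binds RPS19 and is not part of the ribosome. By its symbol it is counted among the 32 genes of the small subunit.

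The libraries hold polyadenylated RNA from macrophages that were grown from mouse bone marrow with M-CSF over 8 days. Wild-type (WT) cells received PBS or the fungus Candida albicans, and cells labelled Piezo1 KO, a knockout of the gene for a mechanically gated cation channel, received the same treatments. Each of the 4 groups had 3 libraries. The titles of the knockout PBS libraries say DMSO, and the grouping here follows their treatment label, PBS. The labels give no fungal dose, no time, no mouse age and no detail of the knockout allele, and they do not say that replicates came from separate animals. The p-values therefore measure the spread between these libraries, which may be technical.

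Each library had between 16400119 and 25741091 reads in genes. Piezo1 lay between 130 and 147 TPM in the 6 wild-type libraries and between 62.4 and 67.5 TPM in the 6 knockout libraries, so that it was lower in each knockout library but not at 0. The deleted part of the gene is not given in the labels, and whether the remaining reads lie outside it was not tested. All 11 macrophage markers looked for reached 1 TPM in each library, while all 5 fibroblast and all 5 erythroid markers stayed under 1 TPM in all of them. Of the markers of other leukocytes, 7 of 9 for neutrophils (Ly6g, Mpo and S100a9 among them), 4 of 5 for T cells (Cd3d, Cd3e, Cd3g and Cd8a) and 4 of 5 for dendritic cells also stayed under 1 TPM. The summed TPM of the neutrophil list was 2.21 to 2.75 in wild-type PBS, 6.56 to 8.14 in wild-type C. albicans, 4.19 to 5.63 in knockout PBS and 3.06 to 5.26 in knockout C. albicans. For T cell markers the sums were 16.2 to 17.7, 12.6 to 16.3, 7.28 to 8.78 and 10.6 to 12.02 in the same order, with Cd4 as the 1 gene at 1 TPM or more. The summed TPM of the macrophage markers ran from 33599 to 33694 in wild-type PBS, 28861 to 30547 in wild-type C. albicans, and, for the knockout, 22518 to 22901 with PBS and 23802 to 23986 with C. albicans. The summed TPM of 10 genes of dividing cells was 461 to 494, 624 to 669, 530 to 565 and 596 to 599 in the same order. These sums therefore moved with the groups, and their part in the results on ribosomal proteins was not tested. In bulk RNA, fewer cells of a type and less RNA per cell cannot be told apart. Wild-type C. albicans replicate 1 stood apart. Over the 79 genes it differed from replicates 2 and 3 by a mean absolute log2 ratio of 0.0941 and 0.0870, against 0.0283 between replicates 2 and 3. The counts of changed genes were therefore also made without it.

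Most messages for ribosomal proteins and for several translation factors begin with a cytosine and a run of pyrimidines, the 5′ terminal oligopyrimidine (TOP) motif, through which mTORC1 and the RNA-binding protein LARP1 control their translation. Cells under growth or immune stimulation are known to adjust translation of these messages as a group. Sequences around the start are shown for the genes with the 4 largest rises and the 4 largest falls with C. albicans in wild-type cells among genes that passed the test and whose groups did not overlap, taken from RefSeq promoters on build GRCm38.p6, from 50 bases before the annotated start to 30 bases from the start. Capitals mark the longest pyrimidine run beginning with C in the stretch printed, wherever it lies, so a marked run is not always at the start as a TOP motif is. Where runs were equally long, only the earlier is marked. Rpl39 has an unmarked run of the same length after the start, and Rps27l has another before it. The first group holds genes that were higher with C. albicans in wild type, namely Rpl39 on chrX:37085193-37085272 (minus strand), Rpl38 on chr11:114668530-114668609 (plus strand), Rps27l on chr9:66946036-66946115 (plus strand) and Rps15a on chr7:118116118-118116197 (minus strand).
Rpl39: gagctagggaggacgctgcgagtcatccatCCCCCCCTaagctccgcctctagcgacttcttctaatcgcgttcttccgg
Rpl38: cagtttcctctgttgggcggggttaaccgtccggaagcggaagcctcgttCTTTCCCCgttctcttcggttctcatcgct
Rps27l: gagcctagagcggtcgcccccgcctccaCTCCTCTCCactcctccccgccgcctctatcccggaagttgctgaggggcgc
Rps15a: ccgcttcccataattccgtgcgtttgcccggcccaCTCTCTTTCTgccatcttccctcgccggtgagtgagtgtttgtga

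The second group holds genes that were lower with C. albicans in wild type by TPM, namely Rps9 on chr7:3703991-3704070, Rplp0 on chr5:115559417-115559496, Rpl28 on chr7:4792915-4792994 and Rpl7a on chr2:26910757-26910836, all on the plus strand.
Rps9: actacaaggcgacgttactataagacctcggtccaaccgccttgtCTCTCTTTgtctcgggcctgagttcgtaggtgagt
Rplp0: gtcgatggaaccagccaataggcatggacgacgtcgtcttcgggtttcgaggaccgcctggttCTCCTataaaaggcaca
Rpl28: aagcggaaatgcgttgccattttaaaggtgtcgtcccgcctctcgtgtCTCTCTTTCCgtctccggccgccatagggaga
Rpl7a: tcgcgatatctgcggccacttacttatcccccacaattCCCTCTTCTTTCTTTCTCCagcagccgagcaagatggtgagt

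RefSeq promoters were matched for 60 of the 79 genes. Among the 8 genes shown, the marked run began at the annotated start in 1 (Rpl38), spanned it in 3 (Rps9, Rpl28 and Rpl7a), lay wholly before it in 3 (Rpl39, Rps27l and Rps15a) and after it in 1 (Rplp0). A pyrimidine run of at least 8 bases beginning with C lay anywhere within 50 bases of the start in 48 of these 60 (80.0%), against 28.8% of all 32851 promoter windows. Of the 8 genes shown, only Rplp0 had no run of that length there, its longest being 5 bases. The letters CCGGAAG, a core bound by ETS factors, occurred on either strand of the 300-base window in 22 of 60 (36.7%), against 8.86% of all windows. AAGATGGC, a YY1 motif, occurred in 4 of 60 (6.67%, against 2.75%) and TATAAA in 6 of 60 (10.0%, against 13.6%). Both directions of change were found among genes with a run: the median log2 fold change with C. albicans in wild type was 0.10 over the 48 genes with a run of at least 8 and 0.04 over the 12 with a shorter one. A match of letters is a description of the window and not of a factor bound there.

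By TPM, the most abundant messages were those of Rplp1, an acidic stalk protein of the large subunit (mean 4087 TPM over 12 libraries), Rpl10 (3203 TPM), Rpl41 (2699 TPM), Rps9 (2194 TPM) and Rps14 (2187 TPM). The median gene had 1225 TPM, and 45 of the 79 reached a mean of 1000 TPM. At the low end were the retrotransposed copy Rpl37rt (29.2 TPM), Rps19bp1 (62.0 TPM), the paralog Rpl22l1 (75.9 TPM), the L7-like gene Rpl7l1 (114 TPM) and Rpl22 (116 TPM). Some low levels rest on the gene length behind the TPM: it was 4450 bases for Rpl22 and 5134 bases for Rps15a, against a median of 775 bases. Rps15a had 4131 to 8497 reads per library.

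The gene nearest the limit of 10 TPM from above was Rpl37rt, at 21.3 to 40.9 TPM over the libraries, and the nearest from below was Rps4l, at 5.47 to 12.8 TPM. Of the 11 genes under the limit, 4 encode core ribosomal proteins: Rpl34 was at 0.313 to 2.50 TPM, Rpl30 at 0.572 to 1.79 TPM and Rps27 at 0.215 to 1.97 TPM, and Rpl26 was listed at 0 in all libraries. Rps27rt and Rpl10l were also listed at 0 throughout. Ribosomal protein genes have many near-identical processed copies, and the sources used here do not say how the authors' counting treated shared reads, so these low levels and that of Rpl37rt are uncertain.

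The 79 genes together took a larger part of the library in the knockout and with C. albicans. Their summed TPM was 8.83%, 8.87% and 9.15% of the library in wild-type PBS and 9.29%, 9.61% and 9.65% in wild-type C. albicans. The knockout had 9.65%, 9.91% and 9.65% with PBS, and 10.3%, 10.1% and 10.0% with C. albicans. The wild-type PBS libraries were the lowest and the knockout C. albicans libraries the highest, and wild-type C. albicans reached the lower edge of knockout PBS. Group means were 8.95% ± 0.174, 9.52% ± 0.200, 9.73% ± 0.149 and 10.1% ± 0.145 (SD, n = 3 each), in that order. As a share of reads rather than TPM the genes took 3.19%, 3.37%, 3.63% and 3.79%.

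The shares of both subunits followed the same order of groups. The large subunit's share of TPM went from 5.26% ± 0.116 in wild-type PBS to 5.54% ± 0.110, 5.70% ± 0.0955 and 5.93% ± 0.0800 in wild-type C. albicans, knockout PBS and knockout C. albicans (SD, n = 3 each). That of the small subunit went from 3.69% ± 0.0589 to 3.98% ± 0.0907, 4.03% ± 0.0543 and 4.22% ± 0.0656. The ratio of summed small to summed large subunit TPM stayed between 0.698 and 0.719 in the 12 libraries. It was 0.703 ± 0.00443 in wild-type PBS, 0.717 ± 0.00220 in wild-type C. albicans, and for the knockout 0.708 ± 0.00276 with PBS and 0.711 ± 0.00258 with C. albicans. In wild-type cells the C. albicans libraries (0.715 to 0.719) lay above the PBS libraries (0.698 to 0.706), whereas in the knockout the ranges of the treatments overlapped. This contrast depends on the measure. By the large minus the small subunit median of log2(TPM + 1), the treatments did not overlap in either genotype. Wild type ran from -0.266 to -0.111 with PBS and from -0.371 to -0.274 with C. albicans. The knockout ran from -0.193 to -0.155 with PBS and from -0.289 to -0.238 with C. albicans. A score over chosen genes was given no test.

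**Figure D1:**
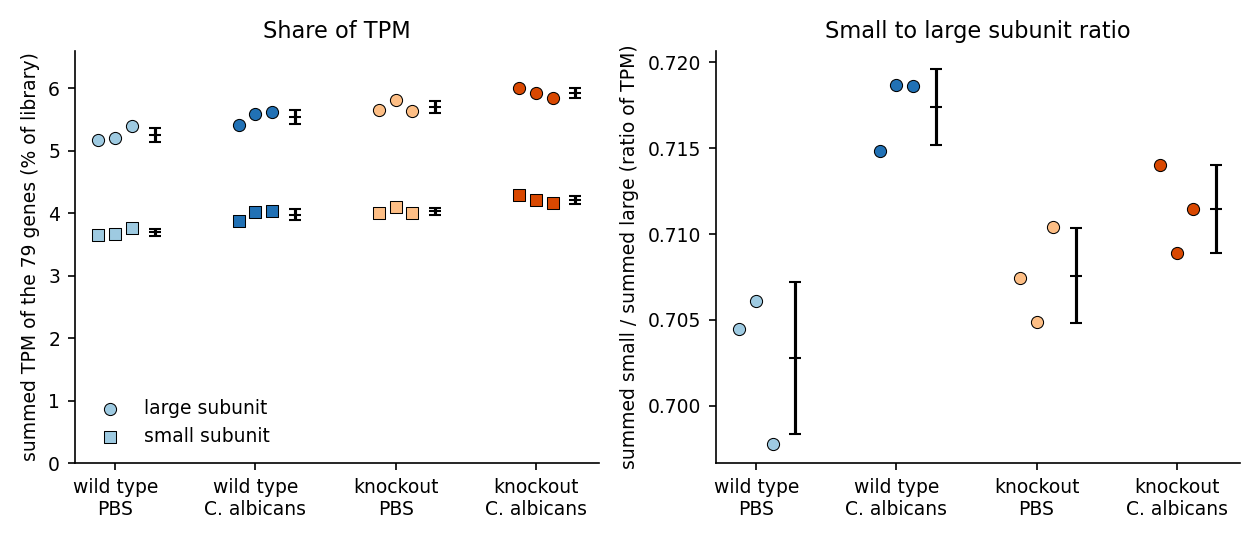
Left, summed TPM of the large (circles) and small (squares) subunit genes as a percent of each library; right, the ratio of summed small to summed large subunit TPM, on an axis that does not start at 0. Each point is 1 of 3 libraries and bars are mean ± SD; both shares are lowest in wild-type PBS and highest in knockout C. albicans, and the ratio stays between 0.698 and 0.719.

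The first comparison asks how wild-type macrophages responded to C. albicans. Of the 79 genes, 40 rose and 12 fell with an adjusted p under 0.05 (limma over 11283 genes, Benjamini-Hochberg), where 16.1% of all tested genes rose and 28.3% fell. In the large subunit 23 of 47 rose and 10 fell, and in the small subunit 17 of 32 rose and 2 fell. Those 2 falls were Rps9 and Rps19bp1, the latter not a ribosomal protein. The median log2 fold change was 0.09 over the 79 genes and -0.07 over all tested genes. The falls depend on the scaling: with median-ratio factors, which bring the median of all genes to 0.00, 54 rose and 1 fell, where 22.8% of all tested genes rose and 18.3% fell. In the authors' deposited table, which holds this comparison from DESeq2, 55 of the 79 had a higher level and 1, Rps9, a lower one at an adjusted p under 0.05, where 18.6% and 14.1% of 13587 genes did. Without wild-type C. albicans replicate 1, 43 rose and 10 fell.

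Rpl39, a small protein of the large subunit at the wall of the peptide exit tunnel, had the largest rise. Its level was 1110, 1030 and 996 TPM in wild-type PBS and 1446, 1751 and 1715 TPM in wild-type C. albicans. The 3 treated libraries lay above the 3 controls, with replicate 1 the lowest of the treated. The log2 fold change was 0.64 ± 0.0642 (SE; limma adjusted p = 6.23e-06), a 1.56-fold rise on the TPM + 1 scale. Rpl38, a large subunit protein known for its role in translating Hox messages, was at 311, 305 and 293 TPM with PBS and 368, 489 and 483 TPM with C. albicans. Its log2 fold change was 0.55 ± 0.0847 (limma adjusted p = 0.000237), and the groups did not overlap.

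Rps27l, a paralog of Rps27 known as a p53 target, was at 234, 218 and 210 TPM with PBS and 312, 330 and 320 TPM with C. albicans. All treated libraries lay above all controls, and the log2 fold change was 0.54 ± 0.0494 (limma adjusted p = 2.92e-06). Rps15a, a small subunit protein, went from 114, 109 and 103 TPM to 156, 149 and 148 TPM, and rose by 0.47 ± 0.0415 on the log2 scale (limma adjusted p = 2.20e-06). Rpl35a, a large subunit protein mutated in some Diamond-Blackfan anaemia families, rose by 0.41 ± 0.0571 (limma adjusted p = 9.22e-05). It was at 746, 731 and 763 TPM with PBS and 911, 1054 and 1028 TPM with C. albicans, again with no overlap.

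Rps29, a zinc-binding protein of the small subunit, passed the test while its groups overlapped. It was at 1049, 1062 and 1126 TPM with PBS, and at 1093, 1934 and 1888 TPM with C. albicans, so that replicate 1 lay among the controls. Its log2 fold change was 0.56 ± 0.157 (limma adjusted p = 0.0121), 0.82 without replicate 1, and 0.41 and 0.43 with adjusted p of 0.0569 and 0.0561 without replicate 2 or 3. Rps28 showed the same split, at 763 TPM in replicate 1 and 1105 and 1094 TPM in replicates 2 and 3, against 732, 699 and 764 TPM with PBS.

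Among genes whose groups did not overlap, the largest falls by TPM were those of Rps9, Rplp0, Rpl28, Rpl7a and Rpl8. Rps19bp1, which is not a ribosomal protein, also passed with a fall of 0.15 (limma adjusted p = 0.0487), but its groups overlapped and only 2 of the 12 fits without 1 library kept the call. Rps9, a small subunit protein, was at 2205, 2260 and 2357 TPM with PBS and 1962, 2020 and 2006 TPM with C. albicans. Every treated library lay below every control, and Rps9 fell by 0.19 ± 0.0286 on the log2 scale (limma adjusted p = 0.000209). It fell by 0.11 with median-ratio factors and by 0.11 in the authors' deposited table, where its adjusted p was 0.0187, so this fall held under each scaling. Rplp0, the protein that anchors the acidic stalk to the large subunit, was at 1117, 1138 and 1220 TPM with PBS and 1035, 1025 and 1041 TPM with C. albicans. It fell by 0.16 ± 0.0305 (limma adjusted p = 0.000940), but by 0.08 with median-ratio factors, where the adjusted p was 0.0780. Rpl7a, Rpl28 and Rpl8, all of the large subunit, fell by 0.14, 0.15 and 0.13, and none of these falls passed with median-ratio factors. Rpl28 also missed the threshold without wild-type C. albicans replicate 1 (-0.10) or wild-type PBS replicate 3, and Rpl8 gave -0.084 without that PBS library and -0.05 (limma adjusted p = 0.0661) with the trend on gene length and GC content removed.

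**Figure D2:**
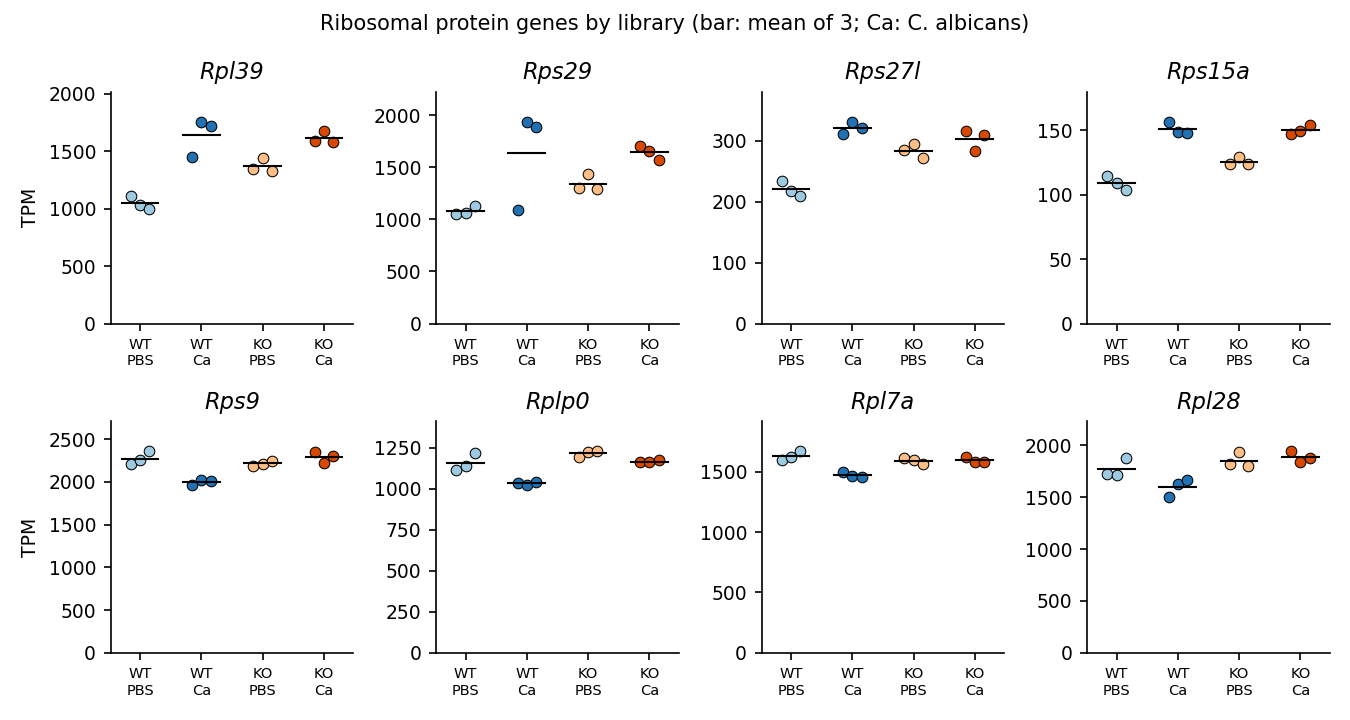
TPM (vertical axis from 0) of 8 ribosomal protein genes in each of the 12 libraries, grouped by genotype and treatment, with a bar at the mean of 3. In the upper row wild-type PBS is low, with Rps29 of wild-type C. albicans replicate 1 (1093 TPM) apart from its group; in the lower row wild-type C. albicans is the lowest group.

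The second comparison is the response to C. albicans in the knockout. Its controls are the libraries whose titles name DMSO, so a vehicle difference and the response cannot be told apart in it. There 17 of the 79 genes rose and 0 fell (limma adjusted p under 0.05), where 3.94% of all tested genes rose and 3.14% fell. The rises were 11 of 47 large and 6 of 32 small subunit genes, and the median log2 fold change was 0.05, against -0.04 over all tested genes. This count is not steady: it was 7 without knockout C. albicans replicate 1, 10 without its replicate 2 or 3 and 7 without knockout PBS replicate 1 or 3. When wild-type C. albicans replicate 1 was left out it was 26, of which 25 rose. With median-ratio factors 24 rose and 0 fell, where 5.42% of tested genes rose and 1.52% fell.

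Rpl35a had the largest rise in the knockout, from 792, 860 and 788 TPM to 1093, 965 and 1046 TPM (0.35 ± 0.0571, limma adjusted p = 0.00226), with no overlap. Rpl13a, which is known to leave the ribosome and silence a set of inflammatory messages in interferon-treated monocytes, was at 534, 548 and 509 TPM with PBS and 645, 653 and 634 TPM with C. albicans. Its log2 fold change was 0.28 ± 0.0667 (limma adjusted p = 0.0243), and it did not pass when any of 5 knockout libraries was left out (each C. albicans replicate, and PBS replicates 1 and 3). In wild type Rpl13a rose by 0.25. Rps15a rose by 0.26. Rpl39 rose by 0.23 (limma adjusted p = 0.0480), from 1348, 1441 and 1326 TPM to 1585, 1673 and 1575 TPM, and this call was lost when any knockout library, or wild-type PBS replicate 2, was left out.

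The responses of the 2 genotypes share no library and can be set side by side. Across the 79 genes the log2 fold changes had a Spearman correlation of 0.723 and a Pearson correlation of 0.747, as a description over genes that share length and base composition effects. Of the 17 genes that rose in the knockout, 14 also rose in wild type, which is 82.4% of the knockout list and 35% of the wild-type list. Of all 79 genes, 50.6% rose in wild type. The same overlap and correlations over all tested genes are not given here, so these values cannot be read as particular to ribosomal proteins. The 3 that rose in the knockout only were Rpl27, Rpl35 and Rps3, named after their values were seen. Of the 12 that fell in wild type, none passed the test in the knockout.

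**Figure D3:**
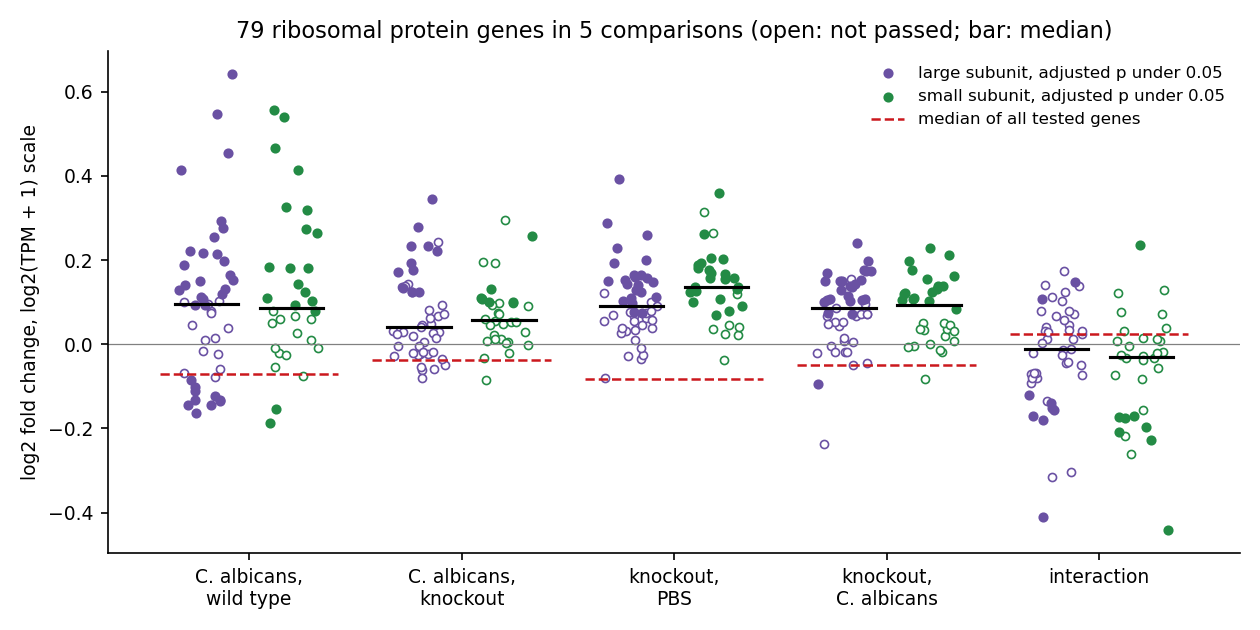
Log2 fold change on the log2(TPM + 1) scale (vertical axis) of each of the 79 genes in the 5 comparisons (horizontal axis), large subunit in purple and small in green, filled where the adjusted p is under 0.05. Black bars are subunit medians and dashed red lines the median of all tested genes; no gene is filled below 0 for the response in the knockout or for the knockout effect with PBS.

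The third comparison asks what differed between the genotypes with PBS, before any fungus. Here 46 of 79 genes were higher in the knockout and 0 were lower (limma adjusted p under 0.05), where 6.14% of all tested genes were higher and 26.1% lower. The higher genes were 23 of 47 in the large and 23 of 32 in the small subunit. The median log2 difference was 0.11, against -0.08 over all tested genes. Upper-quartile factors moved the median of all genes from -0.08 to 0.02 and gave 70 higher and 0 lower, where 16.2% and 12.6% of genes were called. Median-ratio factors gave 65 and 0 (14.2% and 14.1% of genes). Scaling to the median of the 79 genes themselves left 8 higher and 12 lower, where 2.06% and 46.1% of genes were called. With the trend on length and GC content removed over all genes, 23 were higher and 4 lower, where 9.75% and 9.6% of genes were. This comparison uses the libraries whose titles name DMSO, so genotype and vehicle cannot be told apart in it.

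The largest difference was again in Rpl39, at 1348, 1441 and 1326 TPM in knockout PBS, above the 1110, 1030 and 996 TPM of wild-type PBS (0.39 ± 0.0642, limma adjusted p = 0.000608). Rps27l was at 284, 294 and 272 TPM in the knockout, above its wild-type range of 210 to 234 TPM (0.36 ± 0.0494, limma adjusted p = 0.000189). Rpl41, the shortest ribosomal protein, was at 2710, 2797 and 2760 TPM against 2175, 2239 and 2356 TPM (0.29 ± 0.0605, limma adjusted p = 0.00305), and by 0.18 with the length and GC trend removed. For these 3 genes the genotypes did not overlap. Rps24, a small subunit protein linked to Diamond-Blackfan anaemia, was at 700, 712 and 689 TPM against 597, 594 and 562 TPM, a log2 difference of 0.26 ± 0.0275 (limma adjusted p = 2.77e-05). Rpl38 also rose by 0.26 (limma adjusted p = 0.0328), and its call was lost when any of the 6 PBS libraries was left out.

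Rplp1, the most abundant gene of the set, was at 3634, 3745 and 3931 TPM in wild-type PBS and 4183, 4403 and 4090 TPM in knockout PBS, and was higher by 0.16 on the log2 scale, but by 0.05 (limma adjusted p = 0.267) with the length and GC trend removed. Rps19, the gene most often mutated in Diamond-Blackfan anaemia, was at 481, 505 and 529 TPM against 566, 586 and 578 TPM, a log2 difference of 0.19. Neither gene's groups overlapped. Rps9, at 2188, 2211 and 2248 TPM in knockout PBS, overlapped its wild-type PBS levels and gave a log2 difference of -0.04 (limma adjusted p = 0.356).

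The fourth comparison sets the genotypes side by side with C. albicans. Of the 79 genes 40 were higher in the knockout and 1, Rpl22, was lower, where 12.4% of all tested genes were higher and 27.5% lower. The higher genes were 23 of 47 large and 17 of 32 small subunit genes, Rps19bp1 being among the 17. The median log2 difference was 0.09, against -0.05 over all tested genes. With median-ratio factors the counts were 48 and 0 (19.3% and 21.8% of genes). With the length and GC trend removed 13 were higher and 4 lower, where 17.7% and 15.3% of genes were. The share that was higher was thus near that of all genes, and the share that was lower was below it. Scaling to the family median left 9 higher and 8 lower, where 5.88% and 35.4% of genes were called. Without wild-type C. albicans replicate 1 they were 38 and 2. Rpl22, an RNA-binding protein of the large subunit, was at 125, 119 and 128 TPM in wild type and 116, 119 and 114 TPM in the knockout. These ranges overlapped, and its log2 difference of -0.09 ± 0.0354 (limma adjusted p = 0.0496) turned to 0.01 with upper-quartile factors and 0.09 with the length and GC trend removed, so its direction is not settled.

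The genes with the largest differences here were other than those with PBS. Rpl28 was at 1941, 1844 and 1882 TPM in knockout C. albicans and 1505, 1626 and 1669 TPM in wild-type C. albicans (0.24 ± 0.0453, limma adjusted p = 0.00106). Rps2, a small subunit protein near the mRNA entry, was at 1945, 1818 and 1906 TPM against 1601, 1603 and 1627 TPM (0.23 ± 0.0323, limma adjusted p = 0.000122). In both, the lowest knockout library was above the highest wild-type library. Rps15 was higher by 0.21, Rps9 and Rpl10a by 0.20 each and Rplp0 by 0.17, all passing the test. With the length and GC trend removed these differences were smaller: Rps15 gave 0.05 and lost the call (limma adjusted p = 0.0877), and Rps9 (0.07), Rps2, Rpl10a and Rplp0 (0.09 each) and Rpl28 (0.14) kept it. Rpl39 was at 1585, 1673 and 1575 TPM in the knockout and 1446 to 1751 TPM in wild type, with a log2 difference of -0.02 (limma adjusted p = 0.844). Its 2 C. albicans groups overlapped, where its 2 PBS groups did not. Rps29 turned with 1 library: its log2 difference was 0.05 (limma adjusted p = 0.822) with all libraries and -0.22 (adjusted p = 0.00297) without wild-type C. albicans replicate 1.

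The test of the difference between the 2 responses (the wild-type response taken from that of the knockout) was passed by 17 of the 79 genes, 14 with a lower and 3 with a higher value, where 6.33% of all tested genes were lower and 7.52% higher. It uses the knockout PBS libraries titled DMSO as well, so genotype and vehicle cannot be told apart in it either. The lower values were 7 of 47 large and 7 of 32 small subunit genes. With median-ratio factors the counts were 17 lower and 1 higher (8.38% and 5.88% of genes). With the length and GC trend removed they were 10 lower and 6 higher, where 799 and 822 of 10694 genes were called. Scaling to the family median turned the balance, with 7 lower and 10 higher, where 479 and 919 of 11283 genes were called. Without wild-type C. albicans replicate 1 the counts were 20 lower and 4 higher. The total was 10 without knockout PBS replicate 2. It was 11 without wild-type PBS replicate 2 or knockout C. albicans replicate 3.

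Rps27l had the largest difference between responses, -0.44 ± 0.0699 (limma adjusted p = 0.00131). It rose by 0.54 in wild type, whereas in the knockout it went from 272 to 294 TPM with PBS to 284 to 317 TPM with C. albicans, a log2 change of 0.10 (limma adjusted p = 0.260). The value for Rpl39 was -0.41 ± 0.0908 (limma adjusted p = 0.0104), and for Rps24 it was -0.23 ± 0.0389 (limma adjusted p = 0.00222). Rps24 stood at 733, 731 and 723 TPM in wild-type C. albicans and at 751, 746 and 741 TPM in knockout C. albicans, so the 4 groups ordered as wild-type PBS, knockout PBS, wild-type C. albicans and knockout C. albicans, with the last 2 apart by a log2 difference of 0.03 (limma adjusted p = 0.360). Rps15a (-0.21) and Rps23 (-0.20), a protein of the decoding centre, also passed. Rps23 lost the call without replicate 2 of wild-type PBS, wild-type C. albicans or knockout PBS, or without knockout C. albicans replicate 3, and with the length and GC trend removed (-0.11, limma adjusted p = 0.103). Rps15a lost it without any knockout PBS library, knockout C. albicans replicate 1 or 2, wild-type PBS replicate 2 or 3, or wild-type C. albicans replicate 2. Of the 3 higher values, that of Rps9 was the largest (0.23 ± 0.0405, limma adjusted p = 0.00232): it fell in wild type and had a log2 change of 0.05 in the knockout. Rpl7a (0.15) and Rpl6 (0.11) passed too, neither with median-ratio factors. Rps29 gave -0.26 (limma adjusted p = 0.483) with all libraries and -0.53 (adjusted p = 8.64e-05) without wild-type C. albicans replicate 1.

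Rpl12, a protein of the stalk base, Rpl31, Rpl32 and Rps16 were among the genes called higher in each of the 4 comparisons between groups, which share libraries and are not independent. With the length and GC trend removed none of these 4 passed for the knockout effect with C. albicans (limma adjusted p from 0.0597 for Rpl12 to 0.567 for Rpl31). Other calls were lost with it too, among them the knockout response of Rps16 (limma adjusted p = 0.174) and Rpl32 (0.132). For the knockout effect with PBS, Rps16 (limma adjusted p = 0.262) and Rpl12 (0.598) lost theirs. Rpl31 was at 620, 622 and 633 TPM in wild-type PBS, 680, 705 and 718 TPM in wild-type C. albicans, 667, 714 and 663 TPM in knockout PBS, and 809, 745 and 783 TPM once the knockout had C. albicans. Its levels were lowest in wild-type PBS and highest in knockout C. albicans, and the 2 groups between them overlapped. Rpl27a, Rpl36, Rpl36al, Rpl37a, Rpl7l1, Rps14 and Rps18 passed in none of the 4. Rps14 was at 2094, 2068 and 2214 TPM, 2354, 2151 and 2144 TPM, 2106, 2230 and 2146 TPM, and 2344, 2113 and 2283 TPM in the 4 groups in the same order, with every pair of neighbouring groups overlapping. For these genes a missed threshold does not show that levels were equal. The shares of all tested genes called higher in all 4 comparisons, or called in none, are not given here. Neither list can therefore be read as particular to ribosomal proteins.

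Among paralogs, Rpl22 rose in wild type by 0.20 and its paralog Rpl22l1 by 0.29, with Rpl22l1 at 66.8, 68.5 and 67.8 TPM with PBS and 87.6, 80.6 and 81.5 TPM with C. albicans. In the knockout Rpl22l1 rose by 0.22, and Rpl22 gave 0.03 without passing. Both Rpl22l1 calls were lost with the length and GC trend removed, at 0.07 (limma adjusted p = 0.279) in wild type and 0.14 (0.118) in the knockout. Of the pair Rpl36a and Rpl36al, the first rose in wild type (0.22) and in the knockout (0.23), while the second gave 0.10 and 0.09 without passing. Rpl36a also lost both calls with that trend removed, at 0.06 (limma adjusted p = 0.304) and 0.15 (0.0506). Rpl5 and Rpl11, which bind MDM2 together with 5S ribosomal RNA, rose in wild type by 0.09 and 0.12, and Rpl5 gave -0.02 with the trend removed. Rps6, the phosphorylated target of S6 kinase, gave 0.01 there, between 973 and 1014 TPM with C. albicans against 980 to 1013 TPM with PBS.

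The direction of change among these genes went with base composition. The GC content of a principal transcript ran from 40.6% to 60.8%, with a median of 51.9%. Among the 27 genes under 50% GC, 20 rose and 1 fell with C. albicans in wild type, whereas among the 52 with 50% or more, 20 rose and 11 fell. Of the other tested genes, 21.8% rose and 14.2% fell in the first class and 10.7% rose and 43.1% fell in the second. For the knockout effect with C. albicans the counts were 5 higher and 1 lower under 50% GC, and 35 higher and 0 lower at 50% or more, where of the other genes 4.91% were higher and 38.9% lower in the first class and 19.5% and 19.0% in the second. Across the 79 genes the Spearman correlation of GC content with the log2 value was -0.477 for the wild-type response, 0.583 for the knockout effect with C. albicans and -0.0874 for the knockout effect with PBS. Over the other tested genes these were -0.370, 0.354 and 0.110, of the same sign for the first and the second. For the difference between the 2 responses the correlation was 0.419 over the 79 genes and 0.301 over the others. In that test 10 of the 27 genes under 50% GC were lower and 0 higher, where 8.18% and 3.78% of other genes were. Among the 52 with 50% or more, 4 were lower and 3 higher, where 4.86% and 11.4% of other genes were. The knockout effect with PBS ran with gene length over the other genes (Spearman -0.457, and -0.234 over these 79). With the trend on length and GC content removed over all genes, 36 of the 79 rose and 11 fell in the wild-type response, where 16.9% of genes rose and 23.5% fell. In the knockout response 13 rose and 2 fell, where 5.14% and 3.1% of genes did.

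**Figure D4:**
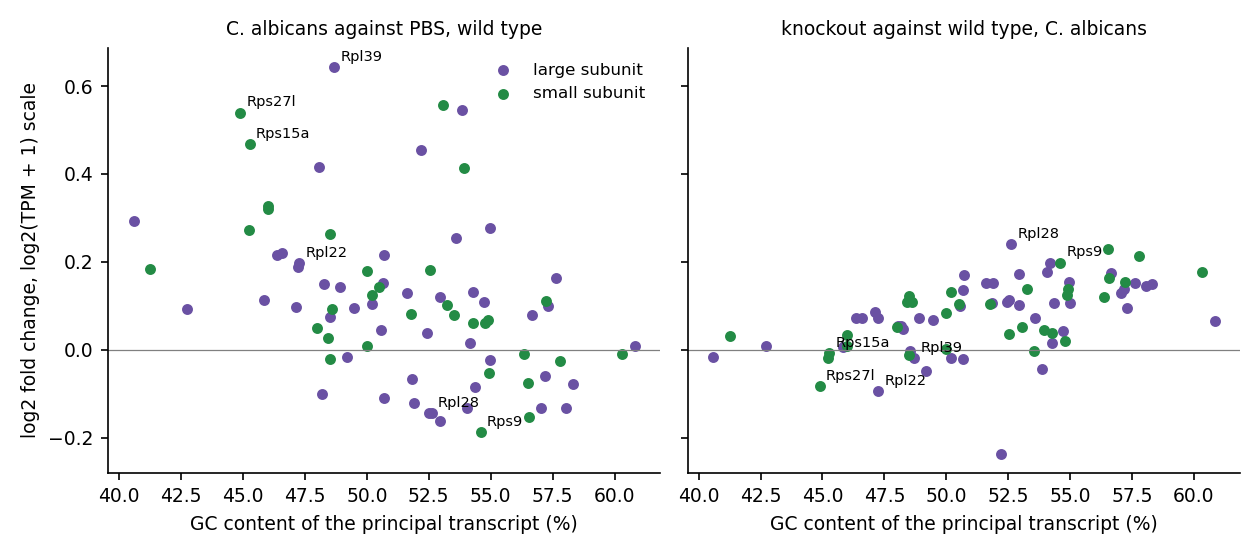
GC content of the principal transcript in percent (horizontal axis) against the log2 fold change on the log2(TPM + 1) scale (vertical axis) for the 79 genes, with C. albicans against PBS in wild type on the left and knockout against wild type with C. albicans on the right. The cloud slopes down on the left (Spearman -0.477) and up on the right (0.583).

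Other genes of translation changed in both directions. Of 35 TOP and translation factors, 10 rose and 11 fell with C. albicans in wild type, 0 rose and 3 fell in the knockout, 8 were higher and 9 lower in the knockout with PBS, and 10 were higher and 9 lower with C. albicans. In wild type 28.6% thus rose, against 16.1% of all tested genes, and 31.4% fell, against 28.3%. In the knockout 8.57% fell, against 3.14%. Between genotypes 22.9% were higher with PBS, against 6.14%, and 28.6% with C. albicans, against 12.4%, and 25.7% were lower in either, against 26.1% and 27.5%. The corresponding shares of the 79 ribosomal protein genes were 50.6% risen in wild type, and 58.2% and 50.6% higher in the knockout. Tpt1, a TOP message for the translationally controlled tumour protein, was higher in knockout PBS (mean 5448 TPM) than in wild-type PBS (4506 TPM), by 0.27 (limma adjusted p = 2.15e-05). Eef2, the translocation factor and also a TOP message, fell in wild type from 1868 to 1466 TPM (-0.35, limma adjusted p = 3.94e-06). Eif3a, a scaffold subunit of eIF3, was lower in the knockout with PBS (-0.38, limma adjusted p = 9.85e-06) and with C. albicans (-0.42, limma adjusted p = 2.02e-06). Of the ribosomal proteins outside the symbol rule, Fau, which is made as a fusion with a ubiquitin-like protein, was higher in knockout PBS by 0.12, and Rack1 gave 0.02.

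Genes that build the ribosome were lower in the knockout about as often as all tested genes. Of 45 tested ribosome assembly genes, 0 were higher and 13 lower in the knockout with PBS, and 2 higher and 15 lower with C. albicans, so that 28.9% and 33.3% were lower, near the 26.1% and 27.5% of all tested genes. Ddx21, an RNA helicase of the nucleolus, was at a mean of 62.7 TPM in wild-type PBS and 48.7 TPM in knockout PBS (-0.36, limma adjusted p = 1.49e-05). In wild type 5 of these genes rose and 11 fell with C. albicans, which is 11.1% and 24.4%, against 16.1% and 28.3% of all tested genes. Ubtf, the RNA polymerase I factor, was among the falls (-0.35, limma adjusted p = 2.10e-05). In the knockout 0 rose and 1 (2.22%) fell, where 3.94% of all tested genes rose and 3.14% fell. Of 20 genes of mTORC1 and TOP control, 1 was higher and 8 lower in the knockout with PBS. With C. albicans 1 was higher and 10 lower. Thus 40% and 50% were lower, against 26.1% and 27.5% of all tested genes. In either, 5% were higher, against 6.14% and 12.4%. Larp1, which holds TOP messages, was lower with PBS (-0.34, limma adjusted p = 0.000629) and with C. albicans (-0.45, limma adjusted p = 5.05e-05). In response to C. albicans 4 of the 20 (20%) rose and 7 (35%) fell in wild type, against 16.1% and 28.3% of all tested genes. In the knockout 2 (10%) rose and 1 (5%) fell, against 3.94% and 3.14%. Myc, an activator of ribosome production, rose in wild type from 1.07 to 4.62 TPM (1.44, limma adjusted p = 5.66e-06). In the knockout it rose from 1.26 to 3.02 TPM (0.83, limma adjusted p = 0.00311).

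Of 16 tested genes of ribosome rescue and storage, 2 rose and 5 fell with C. albicans in wild type, and 1 was higher and 7 lower in the knockout with PBS. The shares were 12.5% and 31.2% in wild type, where 16.1% and 28.3% of all tested genes rose and fell, and 6.25% and 43.8% for the knockout, where 6.14% and 26.1% were higher and lower. Gcn1, which senses stalled ribosomes, was lower there (-0.47, limma adjusted p = 0.000133). The 78 mitochondrial ribosomal protein genes gave 12 rises and 17 falls in wild type, and 13 higher and 1 lower in the knockout with PBS, which is 15.4% and 21.8%, and 16.7% and 1.28%, against the same shares of all genes. The 75 tested genes of oxidative phosphorylation gave 24 rises and 9 falls in wild type, and 32 higher and 0 lower in the knockout with PBS, which is 32% and 12%, and 42.7% and 0%. Uqcrb, a subunit of complex III, was at a mean of 171 TPM in wild-type PBS, 247 TPM in wild-type C. albicans and 213 TPM in knockout PBS, and was higher in both comparisons (0.53 and 0.32). The shares of all tested genes set beside the related lists are not matched for gene length. In the knockout with PBS, 22.4% of tested genes outside the ribosomal protein set were higher and 6.14% lower at 500 to 1000 bases. At 1000 bases or more 4.62% were higher and 28.4% lower, and under 500 bases 8.36% and 3.90%. The part of gene length in the counts of these lists, and in the genes named from them, was not tested.

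**Figure D5:**
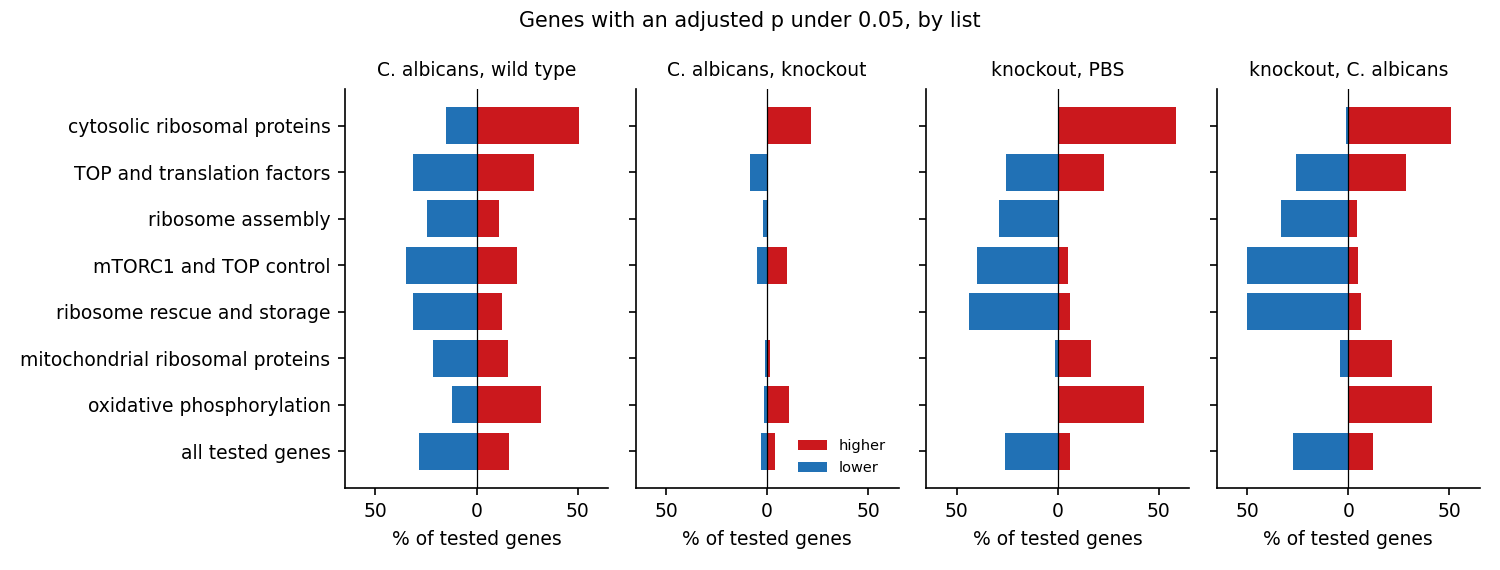
Percent of tested genes (horizontal axis) with an adjusted p under 0.05, higher to the right in red and lower to the left in blue, for the ribosomal proteins, 6 related lists and all tested genes in the 4 comparisons between groups. Ribosomal proteins and oxidative phosphorylation have 0 lower genes in the knockout with PBS, where 26.1% of all tested genes are lower, a share not matched for gene length.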

How the data were processed

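Polyadenylated RNA of 12 libraries (4 groups of 3) was sequenced. The submitters' processing notes name build mm10 and the tools DESeq2 1.34.0, STAR 2.7.5a, cutadapt 2.6 and CASAVA 1.8. The read counter, strand setting and annotation release were not given in the sources used here. Values deposited by the authors are TPM. The same table holds, per the file headers, the authors' mean normalised signal, log2 fold change with SE, Wald score and p-value for 1 comparison. It was identified as the wild-type response to C. albicans because ratios recomputed for those groups differed from it by a median of 0.000946 log2 over 9298 genes.

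From these, log2(TPM + 1) was fitted with limma 3.58.1 (R 4.3.3; variance trend, no block) over the 11283 genes that reached 1 TPM in 3 or more libraries, with two-sided Benjamini-Hochberg adjustment per comparison at 0.05. Fold changes on this scale understate changes of low genes. Reads per gene were recovered from TPM and mean signal for depth and length only. The fit was tested on simulated data. Some genes are not reported here. Genes and lists were chosen with earlier results of these data known. Named genes are the 5 largest called rises and falls per comparison without overlap between groups, the 5 highest and lowest by TPM, the 5 most variable, and a list by role. Alternatives covered pseudocount, filter, scaling, block, length and GC content, and each library left out.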

Additional observations from a re-analysis of the deposited data

Results flagged for a closer look

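The response to C. albicans differed between the genotypes, by limma's interaction term with an adjusted p under 0.05, for 10 of the named ribosomal protein genes. The value is the knockout response less the wild-type response, on the log2 scale. The knockout PBS libraries that enter it are titled DMSO, so genotype and vehicle cannot be told apart in it. It was lower for Rps27l (-0.44), Rpl39 (-0.41), Rps24 (-0.23), Rps15a (-0.21), Rps23 (-0.20), Rpl22 (-0.17) and Rps27a (-0.17). It was higher for Rps9 (0.23), Rpl7a (0.15) and Rpl6 (0.11). Rps27l, Rpl39, Rps24 and Rps9 passed in each of the 12 fits that left out 1 library, and Rpl7a did too but not with median-ratio factors (0.11, adjusted p = 0.0650). Rps27a did not pass without knockout C. albicans replicate 1 or 3 or knockout PBS replicate 1 or 2, and Rps15a and Rps23 lost the call in 8 and 4 of these fits. With the length and GC trend removed, Rps23 (-0.11, adjusted p = 0.103) and Rpl22 (-0.16, adjusted p = 0.0518) did not pass. Rpl22 passed only in the 3 fits without knockout C. albicans replicate 2 or wild-type C. albicans replicate 1 or 2, and Rpl6 only in the 2 without replicate 1 of a wild-type group. Rpl22 and Rpl6 were thus called on narrow margins, with adjusted p of 0.0387 and 0.0408.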

How the results depend on the processing

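Counts of changed genes among the 79 depended on the scaling, on length and GC content and on single libraries. For the response in the knockout, 17 genes with all libraries became 7 with no filter on low values, 7 with the variance trend off, 11 with the replicate block, and 7 to 26 with 1 library left out. For the knockout effect with PBS, 46 became 20 with scaling to the family median, 27 once the length and GC trend was removed, and 70 with upper-quartile factors. With C. albicans, 41 became 17 with either of the first 2. For the interaction, 17 became 4 with the trend off and 10 to 24 with 1 library left out. The wild-type response ran from 44 to 54 with 1 library left out. Family-median scaling sets the family's own median to 0 by construction.

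Same-numbered libraries did not deviate together (correlations -0.0874 to 0.0871 over 18 pairs), and the replicate block gave 52, 11, 44, 40 and 15 changed genes in the 5 comparisons.

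The large minus small subunit median moved with the gene set. In wild-type C. albicans it was -0.34, and -0.18 as a difference of means. In knockout PBS -0.17 became -0.41 with all symbol matches and -0.13 with paralogs left out and genes outside the symbol rule added. In knockout C. albicans -0.27 became -0.18 with means and -0.24 with that other set.

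Of the values for named genes that passed the test in either of the fits compared, 21 changed sign. With family-median scaling these were, for the knockout effect with PBS, Rpl3 (-0.11), Rpl5 (-0.042), Rpl8 (-0.086), Rplp2 (-0.016), Rps2 (-0.019), Rps3 (-0.082), Rps4x (-0.029) and Rpsa (-0.012), and for the wild-type response Rps6 (-0.082). After removal of the length and GC trend they were, for the knockout effect with C. albicans, Rpl22 (0.086), Rpl8 (-0.020), Rplp2 (-0.026), Rps14 (-0.11) and Rps15a (0.23), for the wild-type response Rpl5 (-0.016) and Rpsa (0.11), and for the knockout effect with PBS Rplp2 (-0.0010). With upper-quartile factors they were Rpl22 (0.010) and Rps27a (0.093) with C. albicans and Rpl7a (0.082) with PBS. The knockout effect with C. albicans for Rps29 ran from -0.22 without wild-type C. albicans replicate 1 to 0.19 without its replicate 2. The cause was not tested. A further 77 values that passed in neither fit crossed 0, among them 20 with family-median scaling, 13 with median-ratio factors, 11 with upper-quartile factors, 23 with 1 library left out and 10 once length and GC were corrected for. Of the rest, 2822 kept direction and side of the threshold, and 283 lost and 136 gained a call in the same direction. The lowest of the 79 genes had at least 118 reads in each library.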
